A study of Mus musculus with 6 samples.

Results

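The late change in silica-exposed, CCR2-deficient lungs was read from 2 of the 6 arrays of the series, the Ccr2KO array at day 40 and the Ccr2KO array at day 28 after silica aspiration. The lungs came from Ccr2KO mice of the strain B6.129S4-Ccr2tm1Ifc/J, which carry a targeted Ccr2 allele, at day 40, at day 28 or untreated (day 0). WT C57BL/6J lungs at the same 3 points gave the other arrays. All mice were 7 to 9 weeks old when the experiments began, and the sources used here give neither the silica dose nor the sex of the mice. Perfused lungs were dissociated with enzymes, Percoll removed erythrocytes and silica, and CD45-negative cells were taken with magnetic labelling. Each of the 6 RNAs was pooled from 3 biological replicates and went on 1 one-colour Agilent array. The spread between animals is therefore unknown, the change within Ccr2KO and its difference from WT could not be tested, and every difference below is a description of single arrays.

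The brightest probe stood for each gene, and a gene was kept where that probe was well above background on at least 1 of the 2 Ccr2KO arrays. This gave 16618 genes, 15465 of them above background on both. Levels are log2 signals minus the 75th percentile of their array, so 0 is the signal at that percentile. A difference is the day 40 level minus the day 28 level, and its technical size can be judged from probes of the same gene, whose differences had an SD of 0.27 log2 (8760 probes of 3990 genes). The day 40 array was the dimmer and noisier of the pair, with a 75th percentile of 793 against 975 signal units and 60.5% against 63.8% of probes above background. Repeat spots of 1 probe had an SD of 0.155 log2 at day 40 and 0.103 log2 at day 28. Both arrays lay on 1 slide with the same scan, day 40 in row 2 and day 28 in row 1, so row and day cannot be told apart in Ccr2KO. The WT arrays of day 40 and day 28 both lay in row 2.

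CCR2 is the chemokine receptor through which inflammatory monocytes leave the bone marrow and enter inflamed tissue, and CCL2, CCL7 and CCL12 are among its mouse ligands. Silica crystals taken up by lung macrophages cause a lasting inflammation, in which granulocytes, lymphocytes and macrophages gather in nodules that fibroblasts wall off with collagen. CD45, the product of Ptprc, is a phosphatase on the surface of nearly all leukocytes. A CD45-negative fraction is thus meant to hold the epithelium, endothelium, fibroblasts and muscle of the lung, and leukocyte transcripts in it are read here apart from structural ones.

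The targeted gene was checked first. Ccr2 stood at -5.07 untreated, -1.51 at day 28 and -3.64 at day 40 in Ccr2KO cells, and at 0.09, 1.38 and -1.70 in WT cells on the same days. Each Ccr2KO level was below the WT level of its day, but the probe was well above background on all 6 arrays. The sources used here do not say where the probe lies relative to the disrupted part of the gene, so this signal does not test the allele.

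The label CD45-negative was also set against markers. Ptprc itself stood at -0.61 in Ccr2KO cells at day 40 and at 2.14 at day 28, and it was above background on all 6 arrays. Markers of structural cells were among the brightest genes on both arrays. Sftpc, a surfactant protein of type 2 alveolar cells, stood at 9.07 and 8.81, Scgb1a1, the secretoglobin of club cells, at 8.72 and 8.40, and Col1a1, a chain of type I collagen, at 7.39 and 7.04 (day 40 and day 28). The fraction therefore held structural RNA with leukocyte RNA beside it at both times.

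Leukocyte genes made up most of what was lower at day 40 among the listed genes. Of 265 genes on 10 leukocyte lists, 256 had a probe, 248 were read and 188 were at least 2-fold lower at day 40 than at day 28, with a median of -1.97 log2 (3.92-fold lower). Over all 16618 genes 4.93% were at least 2-fold lower and 4.27% at least 2-fold higher (9.19% in either direction), and the median was 0.12. No leukocyte gene was at least 2-fold higher, and 13 of the 248 lay above 0, beside 68.1% of all genes. Among the 233 leukocyte genes above background on both arrays the median was -1.92. Fewer leukocytes in the lung, a fuller removal of CD45-positive cells and less RNA per leukocyte cannot be told apart in such bulk samples. In WT, where both arrays lay in 1 slide row, the median over the 227 leukocyte genes above background on all 4 arrays was -1.98, beside -1.96 in Ccr2KO for the same genes.

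**Figure D1:**
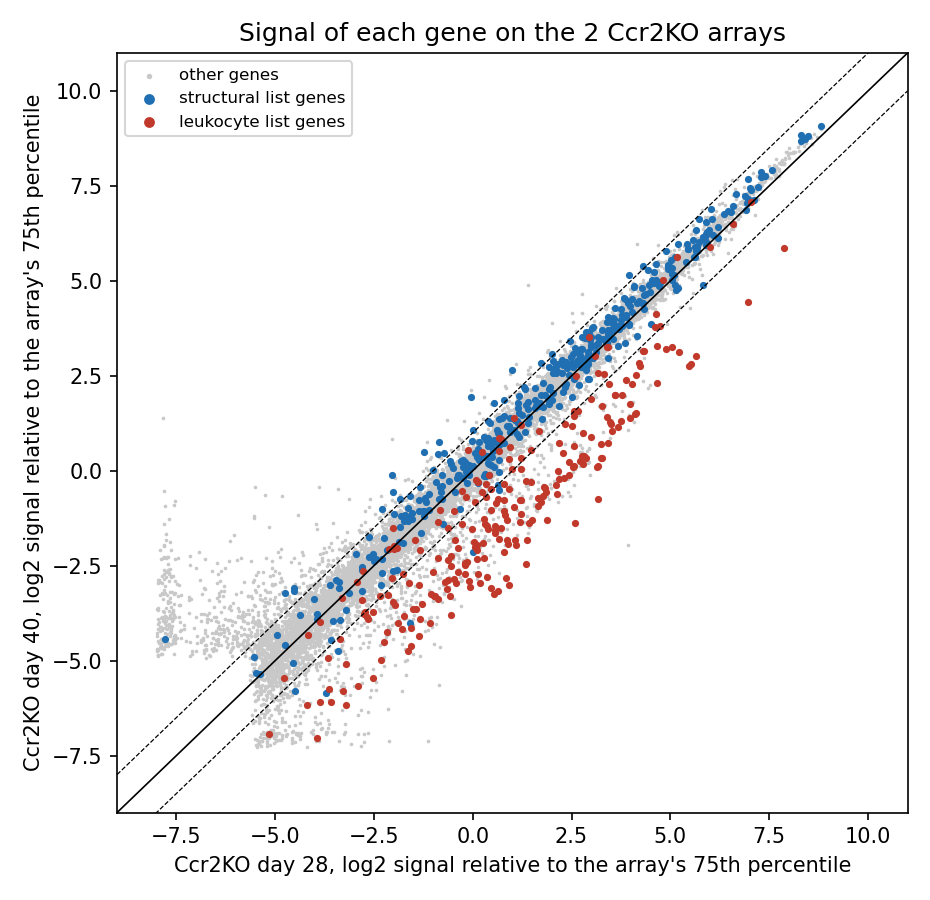
Each point is 1 gene, with its log2 level on the Ccr2KO day 28 array (x axis) and on the Ccr2KO day 40 array (y axis). Leukocyte list genes (red) lie mostly under the lower dashed line, which marks 2-fold lower at day 40, while structural list genes (blue) follow the solid line of equality and other genes are grey.

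Over the time course, the leukocyte genes in this CD45-negative fraction were high at day 28 and at day 40 lay close to their untreated level. Their median level in Ccr2KO cells was -1.24 untreated, 0.67 at day 28 and -1.10 at day 40. At day 28, 241 of the 248 were above their untreated level, and at day 40 139 were below it. The day 40 level was at least 2-fold above the untreated level for 45 of them and at least 2-fold below it for 37.

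B cell genes differed most. Of 21 B cell genes read, 18 were at least 2-fold lower at day 40, with a median of -2.94. Ms4a1, which encodes the B cell surface protein CD20, stood at 0.98 untreated, 2.58 at day 28 and -1.37 at day 40 in Ccr2KO cells, and at 1.48, 2.88 and 0.16 in WT cells. Its day 40 level was 15.4-fold below day 28 in Ccr2KO, the lowest difference of any leukocyte gene above background on both arrays (-3.94 log2). On both genotypes' arrays it was highest at day 28. Fcmr, a receptor for IgM, stood at -0.73 at day 40 and 3.16 at day 28, a difference of -3.89. Btla, an inhibitory receptor of lymphocytes, differed by -3.81, and Bank1, an adaptor of the B cell receptor, by -3.78. Cr2, a complement receptor of B cells, differed by -3.66 from its brightest probe and by -2.40 from the second probe. Cxcr5, the receptor that guides B cells to follicles, differed by -3.55. Cd79a and Cd79b, the signalling chains of the B cell receptor, differed by -3.04 and -2.93. These B cell genes were also lower in WT, by less: Ms4a1 by -2.72, Btla by -2.33 and Cd79a by -1.81.

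Neutrophil genes were lower by a similar amount in both genotypes, 25 of 29 at least 2-fold, with a median of -2.49 in Ccr2KO and -2.40 in WT over the same 29 genes. S100a8, a calcium-binding protein that fills the neutrophil cytosol, stood at 4.25 untreated, 6.96 at day 28 and 4.44 at day 40 in Ccr2KO cells, and at 3.71, 6.53 and 3.69 in WT cells. The day 28 level of S100a8 was thus the high point of both courses, and its day 40 level lay close to the untreated one. This did not hold for the whole list. In Ccr2KO cells at day 40, 14 of the 29 genes were above their untreated level and 15 below it. At least 2-fold above it were 7, and 1 was at least 2-fold below it. Among the 7, and chosen after their values were seen, Ngp stood at -2.28 untreated and -0.19 at day 40, and Mpo at -2.53 and -0.28. Slfn4, a Schlafen family gene of myeloid cells, stood at -3.02 at day 40 and 0.91 at day 28, a 15.3-fold lower level. Cxcr2, the receptor for neutrophil-attracting chemokines, stood at -2.95 and 0.18 on those arrays, 8.73-fold lower. Trem3, a myeloid activating receptor, differed by -3.25 and Stfa3, a stefin protease inhibitor, by -3.19. The 4 genes within 2-fold were Mmp8 (-0.04), Csf3r (-0.11), Elane (-0.17, and 1.25 in WT) and Prtn3 (-0.95). Csf3r, the receptor for the neutrophil growth factor G-CSF, stood at 6.61 untreated, 6.60 at day 28 and 6.49 at day 40. Its brightest probe thus showed no change of the size seen in most of the list.

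T cell genes were lower in 32 of 37 cases at the 2-fold size, with a median of -2.08, and natural killer (NK) cell genes in 18 of 22, with a median of -2.13. Cd3g, a chain of the T cell receptor complex, stood at -1.37 untreated, 1.22 at day 28 and -1.14 at day 40, and Cd3e, another chain of it, at 0.91, 2.50 and 1.18. Both were back near their untreated level. Ccr6, a chemokine receptor of B cells and of T cells that make IL-17, differed by -3.17, Cd5, an inhibitory receptor of T cells, by -2.44, and Klrd1 (CD94), an NK cell receptor chain, by -2.54. With the B and plasma cell genes added, 72 of 87 lymphocyte list genes were at least 2-fold lower, and 62 of the 87 were below their untreated level at day 40. Over the 77 of them above background on all 4 arrays the median was -2.11 in Ccr2KO and -1.84 in WT, and 21 of the 77 had the higher difference in Ccr2KO, beside 57.1% of all genes above background on those arrays.

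Macrophage genes had a smaller median difference in Ccr2KO than in WT. Of 62 genes on both macrophage lists, 42 were at least 2-fold lower at day 40, with a median of -1.53. Over the 57 above background on all 4 arrays, the median was -1.55 in Ccr2KO and -2.16 in WT. Of the 57, 46 had the higher difference in Ccr2KO (median gap 0.39), beside 57.1% of all genes above background on those arrays. Among plasma cell genes 5 of 6 had it, with a median gap of 0.14. The difference between the genotypes was not tested, since each value is 1 array. The alveolar macrophage list had a median of -0.92 in Ccr2KO and -2.28 in WT over 11 genes, and 1 of its 12 genes read was below its untreated level at day 40 in Ccr2KO. That count depends on the single untreated Ccr2KO array, which was below untreated WT for most of the list. Ear2 stood at 1.55 and 4.27 untreated in Ccr2KO and WT, and Siglecf at -3.07 and -0.99. Slc7a2 went the other way, at -3.29 and -3.38.

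The following macrophage genes were chosen after their values were seen. Chil3, a chitinase-like secreted protein of alveolar macrophages, stood at 2.27 untreated, 4.74 at day 28 and 3.82 at day 40 in Ccr2KO cells, and at 4.32, 4.62 and 1.42 in WT cells. Marco, a scavenger receptor that binds silica, stood at -2.75, 0.42 and -0.11 on those days in Ccr2KO cells, and at 0.60, -1.06 and -2.60 in WT cells. The WT array at day 40 was the lowest WT array for both genes, whereas the Ccr2KO array at day 40 was above the untreated one. C1qa, a chain of complement C1q made by macrophages, differed by -1.02 in Ccr2KO and -2.21 in WT, and Trem2, a lipid-sensing receptor, by -0.59 and -2.04. Csf1r, the receptor for macrophage colony-stimulating factor and a marker of this cell type, differed by -1.36 and -2.05, and its 3 probes ranged between -2.02 and -0.37 in Ccr2KO.

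Some macrophage list genes were above their day 28 level in Ccr2KO at day 40. Gpnmb, a glycoprotein of lipid-laden macrophages, stood at 1.45 untreated, 2.94 at day 28 and 3.52 at day 40 in Ccr2KO cells, and at 0.26, 2.54 and 2.03 in WT cells. Its difference was 0.58 in Ccr2KO and -0.50 in WT. That was less than 2-fold, and Gpnmb can also be expressed outside macrophages. F10, coagulation factor X, differed by 0.46 from its brightest probe and by -2.36 from the other, so its direction depends on the probe. Itgax, the integrin chain CD11c, was at least 2-fold lower in both genotypes, by -2.18 in Ccr2KO and -2.61 in WT.

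The remaining leukocyte lists were smaller. Dendritic cell genes were at least 2-fold lower in 8 of 13 cases (median -1.98, and -0.98 with normexp background correction), plasma cell genes in 4 of 7 (median -1.17, and -0.75 with normexp), and mast cell, basophil and eosinophil genes in 6 of 21 (median -0.78). Irf4, a transcription factor of plasma cells and activated lymphocytes, stood at -2.79 at day 40 and 0.36 at day 28, a difference of -3.15. Jchain, the joining chain of IgA and IgM, differed by -1.17 and Cpa3, the carboxypeptidase of mast cells, by -0.63. Cpa3 was still well above its untreated level, at -2.26 untreated, 1.67 at day 28 and 1.04 at day 40. The pan-leukocyte list, with 35 of 36 genes at least 2-fold lower, had a median of -2.34. Within it Ikzf1, the lymphoid transcription factor Ikaros, differed by -2.97 from its brightest probe and by 2.13 from the other, so its direction depends on the probe.

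**Figure D2:**
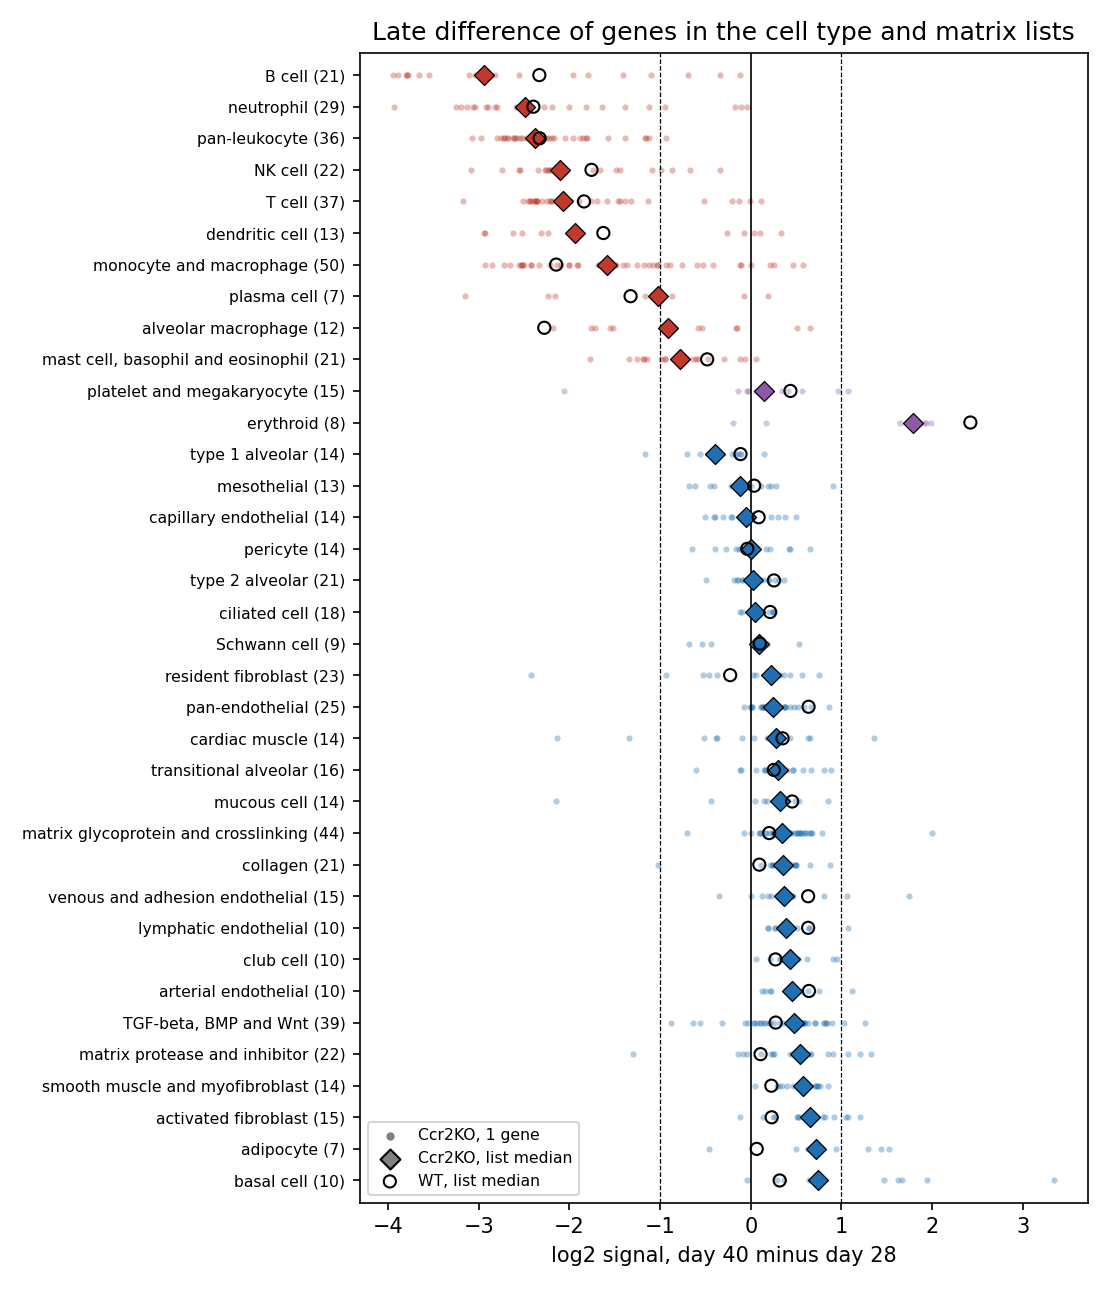
Each row is 1 of the 36 cell type lists, with the number of genes read in brackets, and each dot is 1 gene's Ccr2KO day 40 minus day 28 difference in log2. Diamonds are the Ccr2KO list medians and open circles the WT list medians over genes above background on all 4 arrays of days 40 and 28; dashed lines mark 2-fold. The pan-leukocyte, neutrophil, B cell, T cell and NK cell lists centre near -2 or lower, the macrophage diamonds lie to the right of their WT circles, and most structural lists centre between 0 and 1.

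Promoters of leukocyte genes are shown as a description, since many of these genes are known targets of 1 lineage factor. Spi1 encodes PU.1, a transcription factor of the ETS family that is needed for myeloid and B cell development. Its own transcript was above background at day 28 and not at day 40, at least 6.14-fold lower. The letters GAGGAAGT, the core of the sequence PU.1 is known to prefer, were searched on both strands of the 250 bases before each start site. RefSeq promoters of GRCm38.p6 matched 13165 of the 16618 genes by symbol, and 2.92% of them held the motif. It was present in 7.77% of the 193 leukocyte genes with a promoter, and in 2.13% of 282 structural genes. By list it was in 18.5% of 27 neutrophil, 12.5% of 16 B cell, 10.7% of 28 pan-leukocyte, 8.57% of 35 monocyte and macrophage and 3.70% of 27 T cell genes, the T cell share being near that of all genes. Among genes on no list, 9.39% of the 479 at least 2-fold lower and 2.34% of the 512 at least 2-fold higher held it. The shorter core GGAAGT, which every GAGGAAGT contains, was in 25.2% of all promoters, 47.2% of leukocyte and 19.5% of structural ones. A match describes these letters and is not a measured binding site. Spi1 is itself on the monocyte and macrophage list, and the part of PU.1 in the lower levels was not tested.

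The 120 bases before the start site follow for the 4 lowest leukocyte genes above background on both arrays that hold GAGGAAGT in that stretch (RefSeq, GRCm38.p6, gene strand, start site after the last base). Capitals mark the motif, written as its reverse complement ACTTCCTC in Cd72. Btla lies at chr16:45224217-45224336 on the plus strand, Cd72 at chr4:43454627-43454746 on the minus strand, Vav1 at chr17:57278980-57279099 on the plus strand and Pirb at chr7:3720383-3720502 on the minus strand.
Btla: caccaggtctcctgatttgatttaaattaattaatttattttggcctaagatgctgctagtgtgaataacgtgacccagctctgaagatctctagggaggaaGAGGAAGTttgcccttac
Cd72: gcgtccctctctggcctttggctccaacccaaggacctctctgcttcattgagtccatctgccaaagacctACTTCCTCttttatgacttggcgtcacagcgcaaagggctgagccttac
Vav1: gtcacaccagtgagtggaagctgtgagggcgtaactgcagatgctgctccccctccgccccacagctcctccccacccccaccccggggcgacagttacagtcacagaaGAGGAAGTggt
Pirb: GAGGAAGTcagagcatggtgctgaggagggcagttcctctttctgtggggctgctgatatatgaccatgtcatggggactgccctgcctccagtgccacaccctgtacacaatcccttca
The motif begins 18 bases before the start site in Btla, 49 in Cd72, 11 in Vav1 and 120 in Pirb, so its place in the stretch varied. Btla differed by -3.81, Cd72, a B cell inhibitory receptor, by -2.82, Vav1, an exchange factor of lymphocyte receptor signalling, by -2.61, and Pirb, an inhibitory receptor of B and myeloid cells, by -2.52. Cd72, Vav1 and Pirb were named for their promoters, after their values were seen.

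Structural genes changed little as a whole, with some members standing out. Of 435 genes on 24 structural lists, 412 were read, 22 were at least 2-fold higher at day 40 and 7 at least 2-fold lower, with a median of 0.27. The share at least 2-fold higher was 5.34%, beside 4.27% of all genes, and 277 of the 412 lay above the all-gene median. How many lay above 0 depends on scaling: 327 of the 412 when arrays were scaled to their 75th percentile, 269 when they were centred on their median and 243 when they were centred on the structural genes. These centrings shift the median of all genes by -0.14 and -0.21, and the counts above or below 0 given for lists are on the 75th percentile scale. Among genes above background on both arrays, 21 of 404 structural genes were at least 2-fold higher and 4 at least 2-fold lower. Of all 15465 such genes, 2.02% were at least 2-fold higher and 3.58% at least 2-fold lower, 5.59% in either direction.

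Genes of the extracellular matrix leaned to the high side. The matrix lists, collagens, glycoproteins and crosslinking enzymes, proteases with their inhibitors, and activated fibroblast genes, held 102 genes read, of which 94 lay above 0, beside 68.1% of all genes. At least 2-fold higher were 7, or 6.86% beside 4.27% of all genes, and 2 were at least 2-fold lower. Their median level in Ccr2KO cells was 1.94 untreated, 2.99 at day 28 and 3.31 at day 40. Over the 101 above background on all 4 arrays the median difference was 0.40 in Ccr2KO and 0.15 in WT, and 77 of the 101 had the higher difference in Ccr2KO, beside 57.1% of all genes.

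Thbs4 led them. Thbs4, thrombospondin 4, a matrix glycoprotein of tendon and of injured tissue, stood at -4.10 untreated, -0.05 at day 28 and 1.95 at day 40 in Ccr2KO cells, and at -4.51, 0.55 and 1.04 in WT cells. The day 40 level was 4.0-fold above day 28 in Ccr2KO (2.0 log2), beside a difference of 0.50 in WT. Mmp13, an interstitial collagenase, stood at 0.44 at day 40 and -0.89 at day 28 in Ccr2KO, a difference of 1.32, beside -0.13 in WT. Cthrc1, a secreted protein of activated fibroblasts, differed by 1.21 in Ccr2KO and 0.89 in WT. Lrrc15, a surface protein of activated fibroblasts, stood at -5.74 untreated, 0.02 at day 28 and 1.07 at day 40 in Ccr2KO, and differed by -0.06 in WT; untreated, it was not well above background. Comp, a cartilage matrix protein made by scar fibroblasts, differed by 1.08 in Ccr2KO and 1.25 in WT. Adamts1, a protease that cleaves proteoglycans, differed by 1.07 and 0.86. In Ccr2KO cells each of these 6 genes stood higher at day 40 than on the untreated and day 28 arrays.

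The abundant fibrillar matrix genes had reached their high level by day 28 and differed little afterwards. Col1a1 stood at 5.39 untreated, 7.04 at day 28 and 7.39 at day 40 in Ccr2KO cells, a late difference of 0.36, beside 0.10 in WT. Col3a1, the chain of type III collagen, differed by 0.25, Fn1, fibronectin, by 0.35 and Timp1, an inhibitor of metalloproteinases, by 0.26. These differences are close to the SD between probes of 1 gene and shrink further when arrays are centred on structural genes, where Col1a1 gave 0.15. With quantile normalization Col3a1 gave -0.03. Acta2, smooth muscle actin and a marker of myofibroblasts, stood at 6.89 at day 40 and 6.03 at day 28, a difference of 0.85, and Grem1, an antagonist of bone morphogenetic proteins, differed by 0.79. Spp1 differed the other way in Ccr2KO, by -0.79 to -0.58 depending on the processing. All 14 smooth muscle and myofibroblast genes lay above 0, beside 68.1% of all genes, with a median of 0.58, and none was 2-fold. Col10a1, the collagen of hypertrophic cartilage, was the exception among the collagens, at -0.38 at day 40 and 0.64 at day 28.

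Genes of resident fibroblasts included the lowest structural gene. Slc7a10, an amino acid transporter, stood at 1.98 untreated, -1.59 at day 28 and -4.01 at day 40 in Ccr2KO cells, and at 1.91, -0.42 and -1.31 in WT cells. It was 5.37-fold lower at day 40 than at day 28 in Ccr2KO and lay below the preceding time on every later array of both genotypes. Inmt, a methyltransferase abundant in normal lung, followed the same order in Ccr2KO, at 8.24 untreated, 5.82 at day 28 and 4.88 at day 40. The list as a whole had a median of 0.23 with 18 of 23 genes above 0, beside 68.1% of all genes.

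Of 10 basal epithelial genes read, 5 were at least 2-fold higher (50%, beside 4.27% of all genes), with a median of 1.1. Over the 9 above background on both arrays, 4 were at least 2-fold higher, beside 2.02% of all such genes, and the median was 0.74. The list median was 0.61 with normexp. Basal cells are the stem cells of the airway, and cells with their keratins appear in injured alveoli. Krt5, a keratin of basal cells, stood at -2.46 untreated, 0.99 at day 28 and 2.65 at day 40 in Ccr2KO cells, and at -2.02, -0.13 and 0.37 in WT cells. The second probe for Krt5 gave 1.57, close to the 1.67 of the brightest. Krt17, a keratin of injured epithelium, stood at -0.11 at day 40 and -2.05 at day 28, 3.83-fold higher, and Krt14, the partner of Krt5, at 0.76 and -0.86, 3.08-fold higher. Serpinb5 (maspin), a serpin of epithelial cells, stood at -0.56 and -2.02 and was not above background in untreated cells. Dsg3, a desmosomal cadherin, was above background at day 40 and not at day 28, at least 2.32-fold higher. The same genes differed less in WT, by 0.50 for Krt5, 0.73 for Krt17, 0.60 for Krt14 and 0.32 for Serpinb5. Krt15, a basal keratin named after its value was seen, had the smaller difference in Ccr2KO, 0.74 beside 1.28 in WT.

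Other epithelial lists moved less. Type 1 alveolar genes lay below 0 in 13 of 14 cases, with a median of -0.40 in Ccr2KO and -0.11 in WT, and all 14 were below their untreated level at day 40. Spock2, a secreted proteoglycan expressed by type 1 cells, stood at 2.12 untreated, 0.67 at day 28 and -0.51 at day 40 and was the list's only member at least 2-fold lower. Ager, a receptor on type 1 cells, differed by -0.21. Type 2 alveolar genes had a median of 0.02, ciliated cell genes 0.05 and club cell genes 0.43, with none of these at the 2-fold size. Tff1, a mucosal trefoil peptide on the mucous cell list, stood at -2.14 at day 40 and 0.02 at day 28, 4.45-fold lower. Its second probe gave -2.11 and WT gave -2.27, so the lower level was seen in both genotypes.

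Of 74 endothelial genes, all above background on both arrays, 4 were at least 2-fold higher at day 40 and none at least 2-fold lower. The 5.41% higher stood beside 4.27% of all genes, and 2.02% of all genes above background on both arrays. The endothelial median of 0.27 was that of the structural lists as a whole. In WT the median over the same 74 genes was 0.61 and 13 were at least 2-fold higher. Sele, E-selectin, which captures leukocytes on inflamed venules, stood at 0.51 at day 40 and -1.24 at day 28 in Ccr2KO cells, and at 0.82 and -1.12 in WT cells. Its 3.36-fold higher level was the largest among the endothelial genes. Selp, P-selectin, differed by 1.06 in Ccr2KO and 1.56 in WT, and Nts, a neuropeptide on the lymphatic list, by 1.07 and 1.63. Pecam1, the pan-endothelial adhesion protein CD31, differed by 0.11 and 0.75, and in Ccr2KO by -0.03 with arrays centred on their median.

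Genes of fat cells and red cells were also past 2-fold. Of 7 adipocyte genes read, 3 were at least 2-fold higher (42.9%, beside 4.27% of all genes). Cidec, a lipid droplet protein, differed by 1.53, Adipoq, the hormone adiponectin, by 1.44 and Car3, a carbonic anhydrase of fat, by 1.3. Cidec and Adipoq were dim, at -3.21 and -3.08 at day 40 in Ccr2KO. In WT they differed by -3.06 and -0.28, and neither was well above background on both WT arrays. Over the 4 adipocyte genes above background on all 4 arrays of days 40 and 28, the median was 0.72 in Ccr2KO and 0.07 in WT. Erythroid genes were at least 2-fold higher in 6 of 8 cases, with a median of 1.79 in Ccr2KO and 2.42 in WT. With no filter on background the Ccr2KO median was 0.70. Hba-a2, an alpha globin, stood at 6.43 untreated, 2.76 at day 28 and 4.66 at day 40 in Ccr2KO cells, and at 6.43, 3.41 and 5.81 in WT cells. Alas2, the first enzyme of haem synthesis in erythroid cells, differed by 1.64 and 2.36. Both genes were lowest at day 28 in each genotype, after a gradient step that was meant to remove red cells, and the part of red cell RNA in other differences was not tested.

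**Figure D3:**
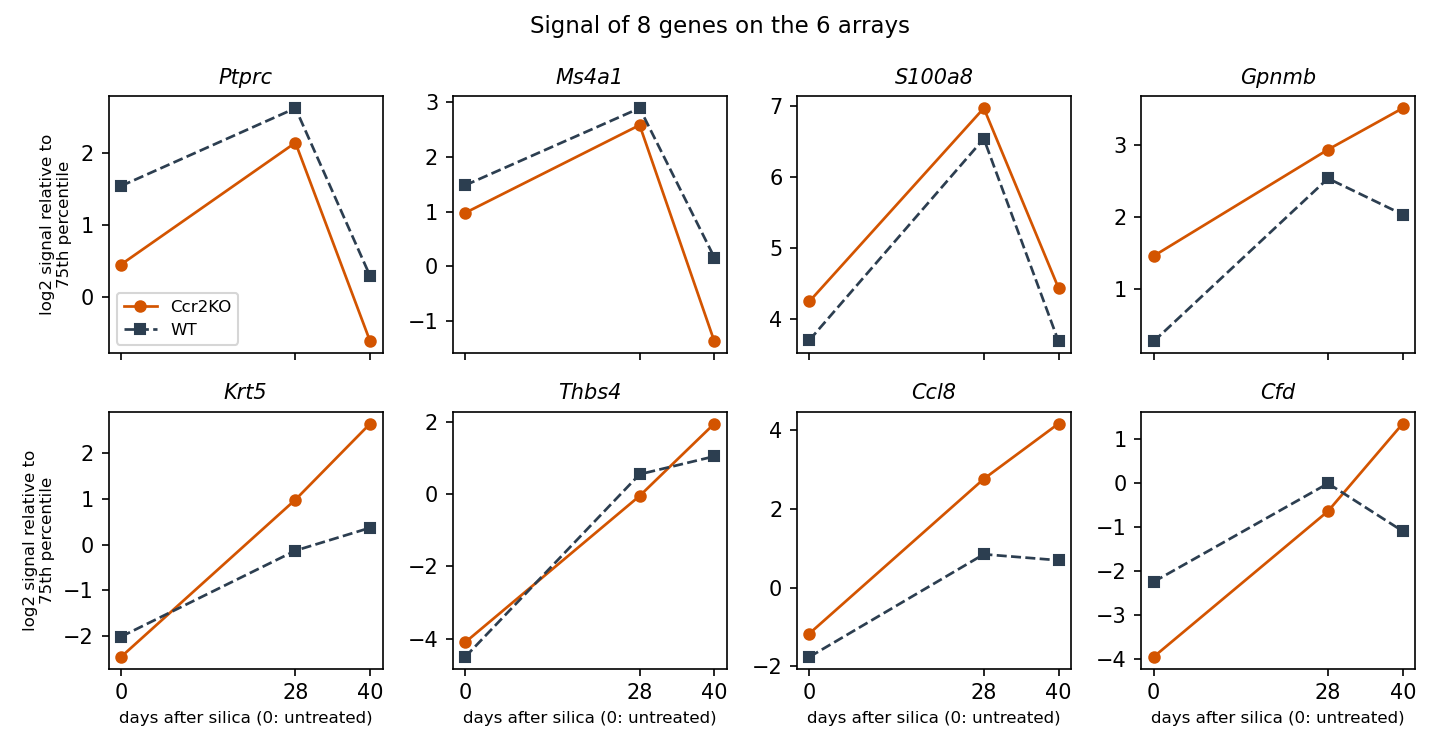
Levels of 8 genes (log2, with 0 at the array's 75th percentile, y axis) on days 0, 28 and 40 (x axis), 1 array per point, Ccr2KO as solid orange lines with circles and WT as dashed dark lines with squares. Ptprc, Ms4a1 and S100a8 peak at day 28 in both genotypes, whereas Krt5, Thbs4 and Ccl8 are highest at day 40 in Ccr2KO and Cfd is higher at day 40 than at day 28 in Ccr2KO but lower in WT.

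The ligands and cytokines did not share a direction. Of 20 chemokine genes read, 2 were at least 2-fold higher (10%) and 4 at least 2-fold lower (20%). The shares of all genes were 4.27% and 4.93%. Ccl8, a chemokine of the monocyte chemoattractant family, stood at -1.16 untreated, 2.76 at day 28 and 4.17 at day 40 in Ccr2KO cells, and at -1.76, 0.85 and 0.70 in WT cells. Its level was 2.65-fold higher at day 40 than at day 28 in Ccr2KO, and both silica arrays of Ccr2KO were above those of WT. Ccl7 stood at 4.68 at day 40 and 3.76 at day 28 in Ccr2KO, a difference of 0.92 beside 0.40 in WT. Ccl2, the main CCR2 ligand, stood at 5.83 and 5.23, a difference of 0.60 beside 0.03 in WT. Ccl12 differed the other way, by -1.23 in Ccr2KO and -1.49 in WT. Cxcl2 and Cxcl3, which attract neutrophils through CXCR2, differed by -1.87 and -1.70, close to the -2.05 and -1.64 in WT. Cxcl9, a chemokine induced by interferon-gamma, differed by 1.25 in Ccr2KO and 1.20 in WT.

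Of 29 cytokine and growth factor genes, 6 were at least 2-fold lower (20.7%, beside 4.93% of all genes). At least 2-fold higher were 2 (6.90%, beside 4.27%). Ltb, lymphotoxin beta, which lymphocytes make, stood at 1.28 at day 40 and 4.08 at day 28, and Osm, oncostatin M of myeloid cells, at -0.97 and 1.01. Both are leukocyte products. Ltb differed by -2.80 in Ccr2KO and -2.24 in WT, and Osm by -1.99 and -2.20. Csf3, the growth factor G-CSF, stood at -0.09 at day 40 and -2.02 at day 28, 3.82-fold higher, and differed by 2.33 in WT. Il6, chosen after its value was seen, stood at 6.46 untreated, 4.16 at day 28 and 5.98 at day 40 in Ccr2KO, so that its low point was day 28.

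Complement genes had 2 of 15 at least 2-fold higher and 2 at least 2-fold lower (13.3% each, beside 4.27% and 4.93% of all genes). Cfd, complement factor D, a protease made in quantity by fat cells, stood at -3.94 untreated, -0.64 at day 28 and 1.34 at day 40 in Ccr2KO cells, and at -2.24, -0.01 and -1.09 in WT cells. It was 3.96-fold higher at day 40 than at day 28 in Ccr2KO and differed by -1.08 in WT. C1s1, a protease of the classical pathway, differed by 1.06, while C7, a late component, differed by -1.54 and Cfp, properdin of leukocytes, by -1.53. Acute phase genes had 2 of 19 at least 2-fold higher and 2 at least 2-fold lower (10.5% each). Hpx, hemopexin, which binds free haem, stood at -2.07 untreated, -2.05 at day 28 and 0.84 at day 40 in Ccr2KO. It was 7.43-fold higher at day 40 than at day 28, beside a difference of 0.31 in WT. The WT levels were -2.53 untreated, -2.32 at day 28 and -2.01 at day 40. Hpx was thus high on the Ccr2KO day 40 array alone, and its value rests on 1 array. Saa3, a serum amyloid made in inflamed lung, was at 8.20 and 7.67 at day 40 and day 28, a difference of 0.53.

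Stress response genes were mostly above their day 28 level. All 11 heat shock genes lay above 0, beside 68.1% of all genes, and 3 were at least 2-fold higher (27.3%, beside 4.27%). Hspa1a, the inducible chaperone HSP70, stood at 4.36 untreated, 1.40 at day 28 and 4.88 at day 40 in Ccr2KO cells, and at 1.32, 2.0 and 5.02 in WT cells. Its day 40 level was 11.2-fold above day 28 in Ccr2KO, but the untreated Ccr2KO level was nearly as high. Immediate early genes, which dissociation of tissue is known to induce, lay above 0 in 21 of 23 cases with a median of 0.56 in Ccr2KO and 0.54 in WT. Atf3, a stress transcription factor on that list, stood at 6.99 untreated, 5.08 at day 28 and 6.22 at day 40. Mt1 and Mt2, the metallothioneins that bind zinc and copper, differed by 1.09 and 1.18 in Ccr2KO and by 0.19 and 0.22 in WT, and their untreated levels of 7.60 and 7.22 were also above the day 28 levels of 6.56 and 6.38. The part of cell handling in these values was not tested.

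Cell cycle genes lay below 0 in 34 of 35 cases, beside 5294 of all 16618 genes. Over the 33 above background on all 4 arrays the median was -0.46 in Ccr2KO and -0.19 in WT. Of the 35, 1 was at least 2-fold lower by its measured levels. That gene, Aurkb, a mitotic kinase, was not above background at day 40 and had a bound of at least 1.43-fold. Kif11, a spindle motor, differed by -0.84. Cdc6, a replication licensing factor, was the gene above 0, at 0.39 from its brightest probe and -0.29 from the other. Genes of antigen presentation by MHC class II lay below 0 in 10 of 10 cases (median -0.65), led by H2-Ob, H2-Oa and H2-DMb2, chains that control peptide loading, at -2.90, -2.16 and -1.73. H2-Aa, a classical class II chain, differed by -0.73. By contrast all 16 interferon-gamma response genes lay above 0, beside 68.1% of all genes. Their median was 0.45 in Ccr2KO and 0.54 in WT, and the Ccr2KO value was 0.25 at its lowest under the alternatives. Type I interferon response genes had a median of 0.06 in Ccr2KO, beside 0.12 for all genes.

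**Figure D4:**
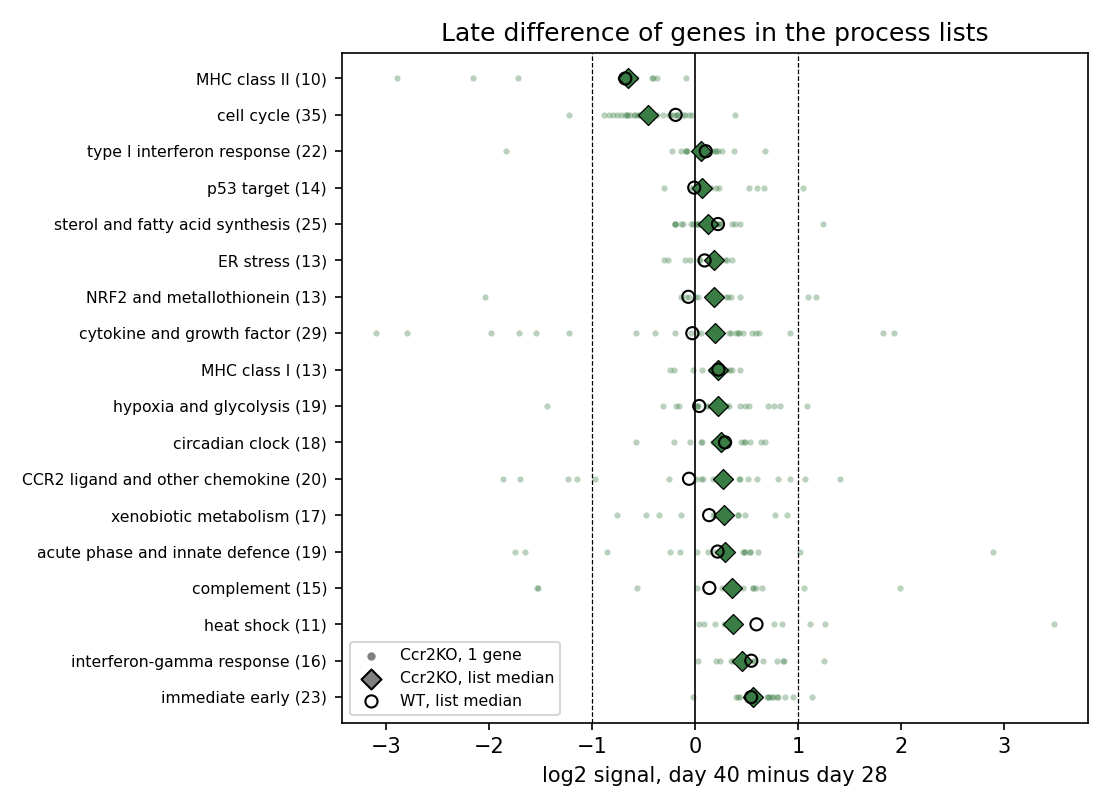
Each row is 1 of the 18 process lists, with the number of genes read in brackets, and each dot is 1 gene's Ccr2KO day 40 minus day 28 difference in log2. Diamonds are Ccr2KO medians and open circles WT medians over genes above background on all 4 arrays of days 40 and 28; dashed lines mark 2-fold. The cell cycle and MHC class II lists centre below 0, and no list median reaches 2-fold.

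Among genes on no cell type list and above background on both arrays, the largest differences had no common role. The lowest was Syt10, a synaptotagmin of vesicle release, which stood at -1.51 untreated, 3.92 at day 28 and -1.94 at day 40 in Ccr2KO cells, and at 2.53, 3.33 and 3.90 in WT cells. It was 58.3-fold lower at day 40, and in Ccr2KO the day 28 array alone was at the WT height. Rufy4, an adaptor of autophagy, stood at -2.68 at day 40 and 0.67 at day 28 and differed by 0.12 in WT. Srpk3, a muscle kinase, differed by -3.58, Ripor2 by -3.08 and Treml2, a receptor on lymphocytes and myeloid cells, by -3.07. The highest, Myom2, a protein of the muscle sarcomere, stood at -4.04 untreated, -4.84 at day 28 and -0.65 at day 40 in Ccr2KO, 18.2-fold higher at day 40, and at -3.45, -5.36 and -5.31 in WT, where both silica arrays were not well above background. Cspg5, a proteoglycan of nerve tissue, differed by 3.45 beside 0.13 in WT, and Onecut2, a transcription factor, by 2.92 beside 2.69. Myom2 and Cspg5 were thus high on the Ccr2KO day 40 array alone, whereas Onecut2 was at -0.49 on the Ccr2KO and -0.55 on the WT day 40 array, at -1.12 in untreated Ccr2KO cells and between -3.23 and -3.72 on the other arrays.

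Genes above background on 1 of the 2 arrays give bounds, the brighter level against the higher of the dim probe's own signal and the lowest signal of any probe above background. There were 747 at day 28 only and 406 at day 40 only, and without them 312 genes in place of 709 were at least 2-fold higher. The largest bounds upward were Cacna1b, a neuronal calcium channel, at least 131-fold, Spin2d at least 34.8-fold, Foxe3, a lens transcription factor, at least 34.2-fold and the olfactory receptor Olfr32 at least 29.1-fold. Cacna1b stood at 1.38 at day 40 in Ccr2KO and between -6.35 and -7.86 on the other 5 arrays, so this value rests on 1 array. The largest downward bounds were Trex2, a DNA exonuclease, at least 17.1-fold, Dipk1c at least 14.0-fold, Siglecg, an inhibitory lectin of B cells, at least 11.6-fold and Tlr1, a receptor for bacterial lipopeptides, at least 9.98-fold. Of 55572 probes, 989 were above background on the Ccr2KO day 40 array and on no other, and 83 of these were at least 16-fold above every other array. The same counts were 429 and 4 for Ccr2KO day 28.

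Set against the WT change between the same days, which shares no array with it, the Ccr2KO change was alike on the low side and less so on the high side. In WT 6.21% of 16174 genes were at least 2-fold lower and 2.41% at least 2-fold higher, 8.61% in either direction. Over 15093 genes above background on all 4 arrays, Pearson's r between the differences was 0.73 and Spearman's rho 0.45, as a description across genes, which are not independent replicates. Without the leukocyte list genes r was 0.67 (14866 genes), within the 227 leukocyte genes 0.82 and within the 401 structural genes 0.56. Of 539 genes at least 2-fold lower in Ccr2KO and 612 in WT, 477 were shared, which is 88.5% of the Ccr2KO genes and 77.9% of the WT genes. Of 232 at least 2-fold higher in Ccr2KO and 227 in WT, 55 were shared, which is 23.7% and 24.2%. Among structural genes 19 were at least 2-fold higher in each genotype and 6 of these were shared. Whether the late change differs between the genotypes could not be tested with 1 array per group.

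**Figure D5:**
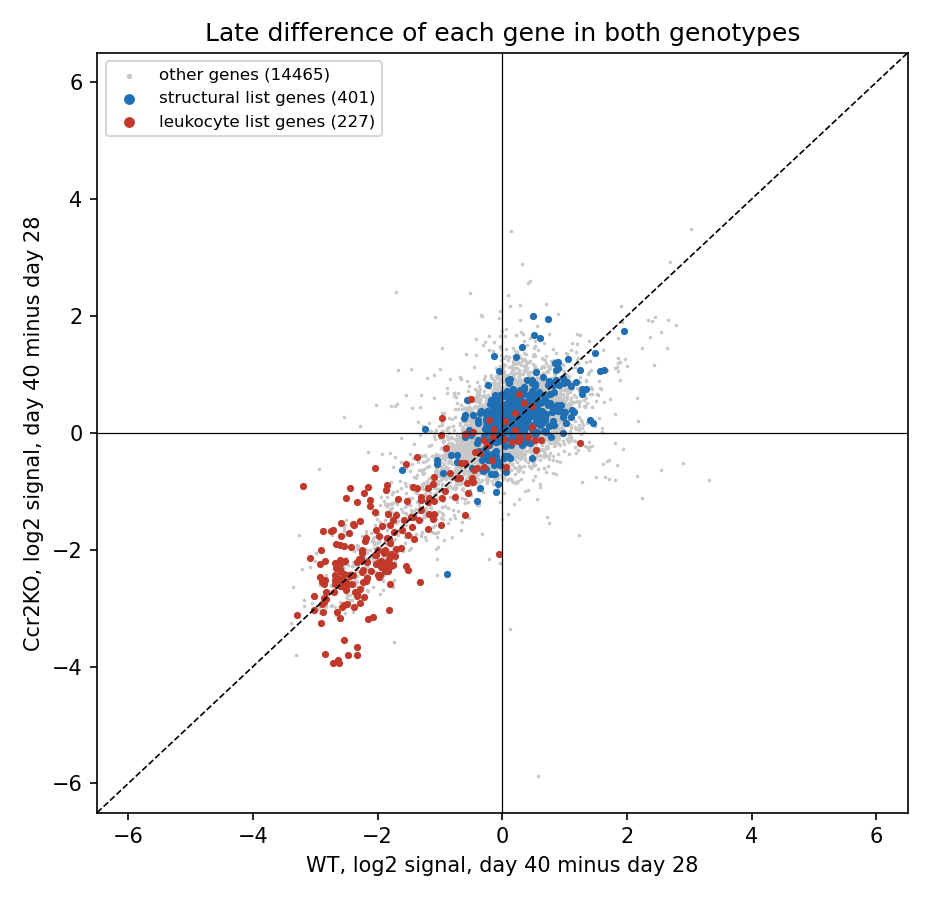
Each point is 1 of 15093 genes above background on all 4 arrays, with the WT day 40 minus day 28 difference (x axis, log2) and the Ccr2KO difference (y axis, log2); leukocyte genes are red (227), structural genes blue (401) and others grey, and the dashed line is equality. Leukocyte genes extend along the line to the lower left, and Syt10, at -5.87 in Ccr2KO and 0.57 in WT, lies far from it.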

How the data were processed

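The members of the comparison and the gene lists were chosen with earlier results of these data known. Each sample was 1 Cy3-labelled RNA on 1 array of design 028005 with mm9 annotation. The intensity used had been background-subtracted and detrended by the authors in Feature Extraction 11.0.1.1 (GE1_1100_Jul11), per the file headers. Per the submitters' processing notes, R 2.15.1 was used. The deposited value table holds log2 values of this intensity for probes above background on every array, and was an alternative only.

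From the deposited intensity of 59305 non-control spots per array, outlier spots (195 at day 40, 131 at day 28) were set to missing, no spot was saturated, repeats were averaged, and log2 values were lowered by the array's 75th percentile. Of 55681 probes, 27509 matched 1 GRCm38.p6 symbol through their RefSeq name. Differences past 2-fold were counted with Python 3.11.15, pandas 2.3.3 and numpy 2.4.6, and limma 3.58.1 in R 4.3.3 made the normexp (offset 50) and quantile alternatives. Normexp used the median foreground signal in place of the mean. On simulated data the steps returned the direction of 200 of 200 changed genes among 16624, with a mean error of 0.152 log2. Genes were named by a fixed rule: the 8 largest differences in each direction among leukocyte genes, structural genes and other genes (clone names left out), the 4 largest bounds in each direction, up to 4 members per list, the markers of each cell type, and chosen genes such as Ccr2, Ptprc and Col1a1. Other exceptions are stated where they occur, but Cd79b, Cdc6, Mmp8, Elane and Prtn3 were also named outside the rule. A few genes it covers are left unreported. The number of arrays, 1 per group, limits the precision.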

Additional observations from a re-analysis of the deposited data

Results flagged for a closer look

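A group of 1 array cannot show an outlying sample. The genes below are those, clone names left out, that were at least 2-fold different between day 40 and day 28 in opposite directions in the genotypes and above background on all 4 arrays. In each case the difference between the genotypes was not tested.

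Cfd, complement factor D, differed by 1.98 in Ccr2KO and -1.08 in WT. Bard1, the partner of the repair protein BRCA1, stood at -0.65 at day 40 and 1.1 at day 28 in Ccr2KO cells, and at 1.15 and -0.07 in WT cells, which gave -1.75 and 1.23. The high array was thus day 28 in Ccr2KO and day 40 in WT. On the same arrays Tbx10, a T-box transcription factor, stood at -0.08 at day 40 and 1.03 at day 28 in Ccr2KO cells, and at 1.56 and -0.68 in WT cells, which gave -1.11 and 2.24. Tmem117, a membrane protein, stood at -2.69 at day 40 and -3.77 at day 28 in Ccr2KO cells, and at -4.14 and -2.46 in WT cells, which gave 1.07 and -1.68. Dner, a ligand of Notch receptors known from neurons, stood at -3.06 at day 40 and -4.14 at day 28 in Ccr2KO cells, and at -4.62 and -3.14 in WT cells, which gave 1.09 and -1.47. For Tmem117 and Dner the Ccr2KO day 40 level was close to the untreated Ccr2KO level of -2.78 and -2.93, and day 28 was the low array.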

How the results depend on the processing

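No paired analysis was possible because each group is 1 array of pooled RNA, and for the same reason no replicate could be left out. The genes at least 2-fold higher numbered 709, and 216 with normexp, 171 in the authors' deposited table, 314 above background on both arrays (312 where the brightest probe was chosen before this filter), 1423 with no filter, 427 above background on at least 2 of 6 arrays (chosen after seeing the data), 1514 at 1.5-fold and 345 at 4-fold. The genes at least 2-fold lower numbered 819, and 489 with normexp, 1273 at 1.5-fold and 380 at 4-fold. The share of higher genes among those past 2-fold was 46.4%, against 30.6% with normexp, 23.2% in the authors' table, 36.2% above background on both arrays, 60.3% with no filter and 35.8% above background on at least 2 arrays. The cause was not tested, except that the filters count other sets of genes by construction. The leukocyte median of -1.97 became -1.51 with normexp and lay between -2.18 and -1.91 otherwise. The structural median of 0.27 lay between 0.06 (centred on structural genes, which puts it near 0 by construction) and 0.27. No list median or named gene that was past 2-fold changed sign under the alternatives run. Smaller list medians did, in 13 of 54 lists, all with a median of at most 0.20 in size; 13 of 486 list medians and 121 of 2289 gene values moved by more than the SD between probes of 1 gene. Dim genes limit what can be read, since Myom2 gave 2.52 in place of 4.19 with normexp.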

Other observations

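Xist, the RNA of the inactive X chromosome, was well above background on the Ccr2KO day 28 array and on no other, with probes at -2.54 and -3.40 there and between -5.33 and -7.88 elsewhere. Ddx3y and Eif2s3y, genes of the Y chromosome, were above background on all 6 arrays, at 1.62 to 2.30 and 2.05 to 2.68. The labels do not give the sex of the pooled mice, and the part of sex in the difference between day 40 and day 28 was not tested.

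Some leukocyte list members were bright and nearly constant on the Ccr2KO arrays by their brightest probe, and were chosen after their values were seen. Siglech, a lectin of plasmacytoid dendritic cells, stood at 6.95 untreated, 7.04 at day 28 and 7.08 at day 40, and Ms4a4c, a membrane protein of monocytes, at 6.16, 6.00 and 5.89. Their other probes disagreed, with differences as low as -2.41 for Siglech and -3.11 for Ms4a4c. Cd4, the coreceptor of helper T cells, stood at 3.16, 3.39 and 3.25. Il17f, a cytokine of T cells, differed by -2.08 in Ccr2KO and -0.05 in WT, and Trat1, an adaptor of the T cell receptor, by 0.12 and -2.57, with its WT day 40 signal not well above background.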
